A study of Mus musculus with 7 samples.

Results

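The genes of the G1 cell cycle switch were followed in mouse primary keratinocytes, the epithelial cells of the epidermis, after silencing of Trp63. The members were the D-type cyclin genes Ccnd1, Ccnd2 and Ccnd3, the kinase genes Cdk4 and Cdk6, the retinoblastoma gene Rb1, and the CDK inhibitor genes Cdkn1b, Cdkn1c, Cdkn2a and Cdkn2b. Every probe set that the platform annotation gives to 1 of these genes alone was taken, which gave 21 of 22626 probe sets and all 10 listed genes, of 12393 named genes in all. Ccnd2 had 7 probe sets, Ccnd1 and Cdk4 had 3 each, Cdkn1b had 2, and each of the other genes had 1. There were 5 arrays of cells transfected with a Trp63-specific siRNA (replicates 1, 2, 3, 4 and 7) and 2 arrays of cells transfected with a non-specific siRNA (replicates 5 and 6), all collected 48 h after transient transfection. Mouse strain and age, the sequence of the siRNA and the number of cultures are not given in the sources used here. Nothing says that the replicates were separate cultures, so the p-values reflect the spread among these arrays alone, and part of that spread may be technical.

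In G1, D-type cyclins bind the kinases CDK4 and CDK6, and the active complexes phosphorylate the retinoblastoma protein. Phosphorylation frees E2F transcription factors, which switch on genes of S phase. INK4 inhibitors, encoded by Cdkn2a and Cdkn2b, bind CDK4 and CDK6 and keep cyclins off them, whereas CIP/KIP inhibitors, encoded by Cdkn1b and Cdkn1c, act mainly on CDK2 complexes and also bind cyclin D complexes. Trp63 encodes p63, the p53-family transcription factor that maintains proliferating basal cells of stratified epithelia.

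Trp63 itself fell at its brightest probe set, from 1565 ± 167 (SD, n = 2) with control siRNA to 503 ± 31.1 (SD, n = 5) with Trp63 siRNA, and 32.1% of the control intensity remained. Its 2 dimmer probe sets fell by less, to 69.4% and 66.5% of the control. Median intensity was 207 to 214 on the 7 arrays, and with only 7 arrays the precision of all values is limited. Both brightest keratinocyte markers, Krt14 and Krt5, read 14413 or more and 10843 or more on every array. All 8 keratinocyte markers examined fell, and their summed intensity was 42364 to 45719 on the silenced arrays against 56147 to 59635 on the control arrays. The log2 ratio of 3′ to 5′ probe sets, used as a sign of RNA quality, differed between the groups. It was 0.19 to 0.32 on the silenced and 0.38 to 0.44 on the control arrays for beta-actin. For Gapdh it was -0.14 to -0.09 against -0.03 to -0.02. This difference and the effect of the siRNA cannot be told apart. Melanocyte markers varied within both groups. The summed intensity of the 5 measured markers was 6059 to 10937 on the silenced and 5970 to 9140 on the control arrays. None of the 5 passed the test. None was at or near 0, but on these arrays that alone does not show expression. The immune gene Ptprc, at the 2.15th percentile of mean level, still read 72 to 78. The melanocyte gene Dct read 4083 and 4463 on silenced replicates 1 and 2 and 3749 on control replicate 5, but 2306 to 2453 on the other 4 arrays. Markers of fibroblasts summed to 1104 to 1274 on the silenced and 994 to 1139 on the control arrays, those of immune cells to 1113 to 1294 and 1156 to 1214, and those of endothelium to 403 to 419 and 420 to 462. Mean levels were below the median of all probe sets for 5 of the 7 fibroblast, 2 of the 5 immune and all 4 endothelial markers. These sums therefore do not show that such cells were present. Among the markers of these 3 cell types, Col1a1 (log2 difference 0.44) and Cd68 (0.60) rose and Tyrobp (-0.20) fell. Col1a2, Csf1r, Cd3e, Kdr and Pecam1 did not pass. These 3 calls ended without control replicate 6 (limma adjusted p = 0.0504 for Col1a1, 0.226 for Cd68 and 0.112 for Tyrobp), and that of Tyrobp also without control replicate 5 (0.0971). The part of other cell types in the results below was not tested.

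With Trp63 siRNA, 11 of the 21 probe sets were called lower and 2 higher (limma adjusted p below 0.05), where 8.16% of all probe sets were called lower and 7.83% higher. By gene, read at the brightest probe set, 4 of 10 fell (Ccnd1, Ccnd2, Ccnd3 and Rb1), 2 rose (Cdkn1b and Cdkn2b) and 4 did not pass (Cdk4, Cdk6, Cdkn1c and Cdkn2a). Among all genes 8.57% were called lower and 8.03% higher. The median log2 difference was -0.12 over the 10 genes and -0.04 over all genes. All silenced values lay below both controls at 13 of the 21 probe sets and above both at 2, compared with 22.4% and 14.2% of all probe sets. Since the arrays measured bulk RNA, fewer cells of a type and less RNA per cell cannot be told apart. These counts describe genes that were chosen with earlier results of these data known.

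**Figure D1:**
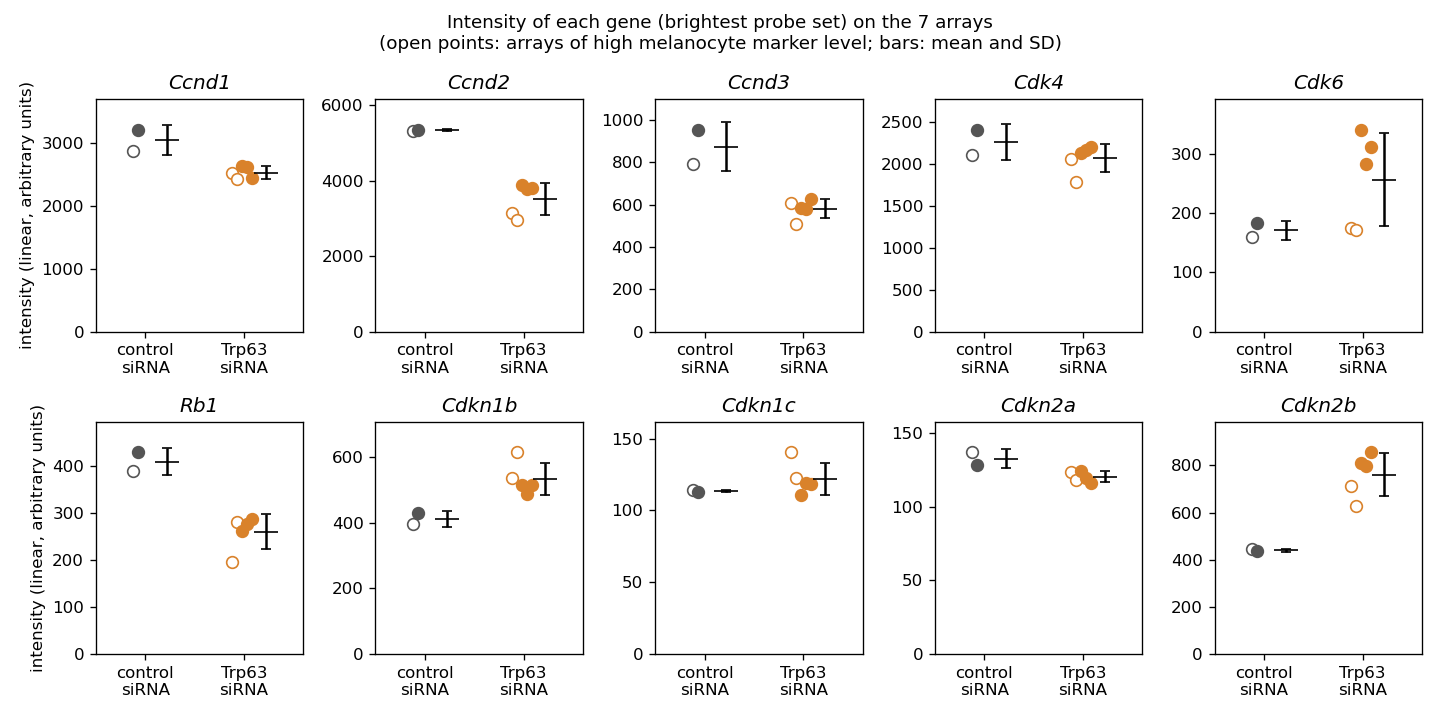
Linear intensity (arbitrary units, each axis from 0) of the brightest probe set of each of the 10 genes on the 2 control siRNA and 5 Trp63 siRNA arrays, with the mean and SD; open points mark silenced replicates 1 and 2 and control replicate 5, the arrays of high melanocyte marker level. Silenced points of Ccnd1, Ccnd2, Ccnd3 and Rb1 all lie below the controls and those of Cdkn1b and Cdkn2b all lie above, whereas Cdk6 splits into low values of 171 and 175 and high values of 284 to 342.

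The D-type cyclins, the growth-factor-sensitive subunits of the G1 kinases, were lower with Trp63 siRNA at 10 of 11 probe sets, and all 3 genes fell. Ccnd2, which encodes cyclin D2, read 3140, 2963, 3878, 3787 and 3810 on silenced replicates 1, 2, 3, 4 and 7 and 5317 and 5357 on control replicates 5 and 6 at its brightest probe set (1416122_at). The groups did not overlap, and the lowest silenced values were those of replicates 1 and 2. This was a 1.53-fold fall (log2 difference -0.61, SE 0.11, limma adjusted p = 0.00481). All fold changes come from log2(intensity + 16), a scale on which the change of a dim gene is understated.

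Of the 7 Ccnd2 probe sets, 6 fell, with log2 differences between -0.70 and -0.55. At 1434745_at the silenced arrays read 2976, 2982, 3495, 3470 and 3458 and the controls 5158 and 5359, the smallest adjusted p among the 21 probe sets (log2 difference -0.68, SE 0.077, limma adjusted p = 0.00049). The remaining probe set, 1416124_at, disagreed: it read 192 to 336 on the silenced and 245 and 270 on the control arrays, which overlap (log2 difference -0.02, 95% interval -0.41 to 0.36, limma adjusted p = 0.944). Averaged over all 7 probe sets, the Ccnd2 difference was -0.54 (limma adjusted p = 0.0105). Leaving out control replicate 6 ended the call of the brightest probe set (limma adjusted p = 0.0566). The calls of 1434745_at, 1448229_s_at and 1416123_at held whichever array was left out, with limma adjusted p of 0.0299 or lower, while 1455956_x_at and 1430127_a_at lost theirs without control replicate 5 (0.0535 and 0.0555) or 6 (0.13 and 0.112).

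Ccnd1, the cyclin most widely induced by mitogens, fell at all 3 of its probe sets, by less than the 6 Ccnd2 probe sets that were called. At the brightest, 1417420_at, it read 2524, 2422, 2633, 2617 and 2448 on silenced replicates 1, 2, 3, 4 and 7 and 2872 and 3212 on control replicates 5 and 6. The silenced values were tight and all lay below the lower control (1.20-fold, log2 difference -0.26, SE 0.060, limma adjusted p = 0.0173). The other 2 probe sets differed by -0.38 (1448698_at) and -0.34 (1417419_at), with limma adjusted p of 0.00791 and 0.0282. No Ccnd1 call held without control replicate 6, where limma adjusted p was 0.173, 0.063 and 0.16 and the brightest probe set differed by -0.18. Without control replicate 5 only the brightest kept its call (0.0232, against 0.0726 and 0.13), and 1417419_at also lost its call without silenced replicate 4 or 7 (0.064 and 0.0522).

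Ccnd3, the third D-type cyclin gene, was represented by 1 probe set (1415907_at). It read 608, 509, 583, 578 and 624 on silenced replicates 1, 2, 3, 4 and 7, against 792 and 954 on control replicates 5 and 6. The groups did not overlap, and the controls differed from each other by more than the silenced arrays did. The fall was 1.49-fold (log2 difference -0.57, SE 0.10, limma adjusted p = 0.00479), and it was -0.44 without control replicate 6 (limma adjusted p = 0.0726).

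To ask whether the cyclins fell unequally, the log2 ratio of Ccnd2 or Ccnd3 to Ccnd1 was taken within each array at the brightest probe sets. The brightest Ccnd1 probe set was the one that fell least. Averaged over all its probe sets, Ccnd1 differed by -0.33 and Ccnd2 by -0.54, against -0.26 and -0.61 at the brightest. The size of the Ccnd2 ratio therefore depends on the probe sets used, and ratios of the averages were not tested. The ratio of Ccnd3 to Ccnd1 was lower with Trp63 siRNA by 0.31 on the log2 scale (difference -0.31), and the groups did not overlap. With all 21 ways of splitting the arrays enumerated, the exact permutation p (two-sided) was 0.0476, the smallest possible, and 0.0952 after adjustment over the 5 ratios tested in these families. For Ccnd2 over Ccnd1 the difference was -0.35, also with no overlap between groups (exact permutation p = 0.0952, adjusted 0.0952). Neither ratio passed after adjustment, but a ratio could pass only if all 5 reached the smallest possible p. The adjusted test therefore could not decide whether the cyclins fell unequally.

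The promoter stretch of Ccnd3 is printed because it is the D-type cyclin with an entry in the RefSeq promoter table (build GRCm38.p6), which held 6 of the 10 members. Each printed stretch covers the 250 bases before a transcript start, read 5′ to 3′ on the gene's strand, in lower case with motif matches in capitals. Matches to 6 motifs were searched on both strands: the p53-family half-site by its consensus, the E2F motif TTTNNCGC, the E-box CACGTG, the GC box GGGCGG, the CRE TGACGTCA and the CCAAT box. Matches of different motifs may overlap. Over all entries of the table the same window held a p53-family half-site in 7.13%, the E2F motif in 4.28%, the E-box in 6.02%, the GC box in 32.7%, the CRE in 1.55% and CCAAT in 33.8%. The upstream Ccnd3 start (chr17:47504801-47505050, plus strand) held 2 GC boxes and the downstream start (chr17:47593217-47593466, plus strand) 1 GC box and 1 CCAAT box.
Ccnd3 upstream start: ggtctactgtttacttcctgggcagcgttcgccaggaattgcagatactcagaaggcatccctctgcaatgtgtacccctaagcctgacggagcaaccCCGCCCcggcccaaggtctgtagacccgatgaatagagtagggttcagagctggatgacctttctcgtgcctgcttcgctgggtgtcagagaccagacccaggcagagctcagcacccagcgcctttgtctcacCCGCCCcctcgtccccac
Ccnd3 downstream start: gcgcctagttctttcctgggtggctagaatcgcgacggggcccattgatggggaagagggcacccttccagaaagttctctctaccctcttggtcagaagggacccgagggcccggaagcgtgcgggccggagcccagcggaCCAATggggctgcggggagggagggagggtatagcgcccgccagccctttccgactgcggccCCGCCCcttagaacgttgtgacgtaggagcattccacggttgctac

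The kinase partners of the D-type cyclins did not pass the test. Cdk4, which encodes the kinase expressed in most dividing cells, read 2062, 1790, 2128, 2172 and 2197 on silenced replicates 1, 2, 3, 4 and 7 and 2105 and 2410 on control replicates 5 and 6 at its brightest probe set (1422441_x_at). The groups overlapped (log2 difference -0.13, 95% interval -0.33 to 0.08, limma adjusted p = 0.378). The 3 Cdk4 probe sets differed by -0.20 to -0.13 with limma adjusted p of 0.165 to 0.378. At 1422440_at, with the largest of these, the silenced values of 941 to 1172 lay below the controls of 1233 and 1270.

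Cdk6, the other G1 kinase gene, had values that fell apart within the silenced group. Its probe set (1460291_at) read 175 and 171 on silenced replicates 1 and 2 and 342, 284 and 311 on replicates 3, 4 and 7, against 159 and 183 on control replicates 5 and 6. The low silenced values overlapped the controls, and the high ones lay above both. The log2 difference was 0.49 (SE 0.25, 95% interval -0.08 to 1.06, limma adjusted p = 0.223). Silenced replicates 1 and 2 were also those of high melanocyte marker level. Within the arrays of high marker level the Cdk6 difference was 0.11, and within those of low level it was 0.72, each against 1 control. With that split as a block, an alternative chosen after seeing the data, Cdk6 passed (0.43, limma adjusted p = 0.0296), and so it did with array weights (0.70, limma adjusted p = 0.0344). The log2 ratio of Cdk6 to Cdk4 was higher by 0.62, with no overlap between groups (exact permutation p = 0.0952, adjusted 0.0952).

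Promoters of both kinase genes were in the RefSeq table. They are shown to set the repeated E-boxes of Cdk4 beside the single one of Cdk6. The Cdk4 window (chr10:127063285-127063534, plus strand) held 4 E-boxes and 1 GC box, and the Cdk6 window (chr5:3343643-3343892, plus strand) 1 E-box and 1 E2F motif.
Cdk4: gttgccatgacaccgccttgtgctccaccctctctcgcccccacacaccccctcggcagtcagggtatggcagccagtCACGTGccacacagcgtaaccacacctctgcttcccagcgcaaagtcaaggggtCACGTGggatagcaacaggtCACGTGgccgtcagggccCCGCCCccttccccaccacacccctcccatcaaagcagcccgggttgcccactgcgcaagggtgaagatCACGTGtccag
Cdk6: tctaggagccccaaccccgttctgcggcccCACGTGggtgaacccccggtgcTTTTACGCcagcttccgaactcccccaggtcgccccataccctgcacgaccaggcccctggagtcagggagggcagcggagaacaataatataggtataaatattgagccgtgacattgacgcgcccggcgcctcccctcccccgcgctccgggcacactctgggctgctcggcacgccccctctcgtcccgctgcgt

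Rb1, which encodes the retinoblastoma protein that the cyclin D kinases phosphorylate, fell 1.55-fold. Its probe set (1417850_at) read 195, 281, 261, 276 and 287 on silenced replicates 1, 2, 3, 4 and 7 and 388 and 429 on control replicates 5 and 6. All silenced values lay below both controls, and replicate 1 was the lowest by a wide gap. The log2 difference was -0.63 (SE 0.13, limma adjusted p = 0.0126). Leaving out either control ended the call: the difference was -0.70 without replicate 5 (limma adjusted p = 0.0565) and -0.56 without replicate 6 (0.12).

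Of the 4 CDK inhibitor genes 2 rose and 2 did not pass. Cdkn2b, the INK4 gene of p15, rose 1.70-fold and had the smallest p among the 10 genes at their brightest probe sets. At 1449152_at it read 714, 629, 808, 798 and 856 on silenced replicates 1, 2, 3, 4 and 7 and 444 and 435 on control replicates 5 and 6. Every silenced value was clear of both controls, and the controls nearly coincided. The log2 difference was 0.76 (SE 0.11, 95% interval 0.51 to 1.02, limma adjusted p = 0.00221). The call held under every alternative run, with limma adjusted p of 0.0355 or lower and differences of 0.70 to 0.84.

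Cdkn2a, its neighbour on chromosome 4, encodes the INK4 inhibitor p16 and, in another reading frame, ARF, and the probe set was not assigned to either. It was dim at 1450140_a_at, with 124, 118, 124, 120 and 116 on silenced replicates 1, 2, 3, 4 and 7 and 137 and 128 on control replicates 5 and 6, below the array medians. The silenced values lay just below both controls (log2 difference -0.12, 95% interval -0.22 to -0.03, limma adjusted p = 0.083). The log2 ratio of Cdkn2b to Cdkn2a was higher with Trp63 siRNA by 0.89, with no overlap between groups (exact permutation p = 0.0476, adjusted 0.0952). Most of this came from Cdkn2b, which alone differed by 0.76, and not from the dim Cdkn2a.

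The promoter windows of the neighbouring INK4 genes are shown because 1 gene rose and the other did not pass. Cdkn2b (chr4:89311033-89311282, minus strand) held 1 CRE at 46 bases before the start. Of the 2 Cdkn2a starts, the one nearer to Cdkn2b (chr4:89294620-89294869, minus strand) held 1 E2F motif and 2 GC boxes, and the other (chr4:89282193-89282442, minus strand) 1 E2F motif. None of the 8 member windows held a p53-family half-site in these letters. Since only 7.13% of all windows held one, 8 windows could well hold none. Ccnd1, Ccnd2, Cdkn1c and Rb1 had no window to search.
Cdkn2b: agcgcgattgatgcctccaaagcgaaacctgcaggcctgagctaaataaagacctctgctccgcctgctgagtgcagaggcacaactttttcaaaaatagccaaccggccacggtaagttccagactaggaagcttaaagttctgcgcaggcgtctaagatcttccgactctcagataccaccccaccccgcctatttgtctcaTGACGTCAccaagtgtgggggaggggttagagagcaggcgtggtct
Cdkn2a, start nearer to Cdkn2b: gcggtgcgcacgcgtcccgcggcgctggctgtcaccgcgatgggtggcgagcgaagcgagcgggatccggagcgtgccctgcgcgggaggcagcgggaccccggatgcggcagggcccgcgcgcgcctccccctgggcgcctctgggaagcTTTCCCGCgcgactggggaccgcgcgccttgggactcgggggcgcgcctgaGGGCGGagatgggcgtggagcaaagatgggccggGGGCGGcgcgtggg
Cdkn2a, other start: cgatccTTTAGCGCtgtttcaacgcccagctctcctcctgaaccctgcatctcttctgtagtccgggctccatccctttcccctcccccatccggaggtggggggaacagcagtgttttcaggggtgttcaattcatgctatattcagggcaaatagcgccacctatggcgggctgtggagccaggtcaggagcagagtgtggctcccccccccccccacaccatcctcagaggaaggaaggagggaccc

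Cdkn1b, the CIP/KIP gene of p27, rose at the brighter of its 2 probe sets. At 1434045_at it read 536, 615, 516, 488 and 513 on silenced replicates 1, 2, 3, 4 and 7 and 395 and 428 on control replicates 5 and 6. The groups did not overlap, and replicate 2 was the highest (1.28-fold, log2 difference 0.36, SE 0.093, limma adjusted p = 0.0297). The dim probe set 1419497_at disagreed, at 132 to 144 on the silenced and 142 and 152 on the control arrays (log2 difference -0.07, 95% interval -0.18 to 0.03, limma adjusted p = 0.329). The mean of both probe sets differed by 0.14 and did not pass (limma adjusted p = 0.162). The call at the brighter probe set ended when control replicate 5 (0.30, limma adjusted p = 0.211) or 6 (0.42, limma adjusted p = 0.0995) was left out, and without silenced replicate 3 or 7 (0.0515 and 0.0555).

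Its promoter window (chr6:134920151-134920400, plus strand), shown as that of the other inhibitor gene that rose, held 2 CCAAT boxes and 1 GC box.
Cdkn1b: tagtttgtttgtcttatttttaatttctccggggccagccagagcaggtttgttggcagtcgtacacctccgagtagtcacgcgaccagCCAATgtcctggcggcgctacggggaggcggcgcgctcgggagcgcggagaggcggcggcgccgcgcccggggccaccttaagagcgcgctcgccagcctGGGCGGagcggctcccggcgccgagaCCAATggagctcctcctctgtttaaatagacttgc

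Cdkn1c, the imprinted CIP/KIP gene of p57, was dim (1417649_at), at 111 to 141 on the silenced and 113 and 114 on the control arrays. The groups overlapped (log2 difference 0.09, 95% interval -0.07 to 0.25, limma adjusted p = 0.43). The ratio of Cdkn1c to Cdkn1b was lower by 0.27 on the log2 scale, with no overlap between groups (difference -0.27, exact permutation p = 0.0952, adjusted 0.0952). Most of this came from Cdkn1b at 1434045_at (0.36), a rise that its dim probe set 1419497_at did not share.

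**Figure D2:**
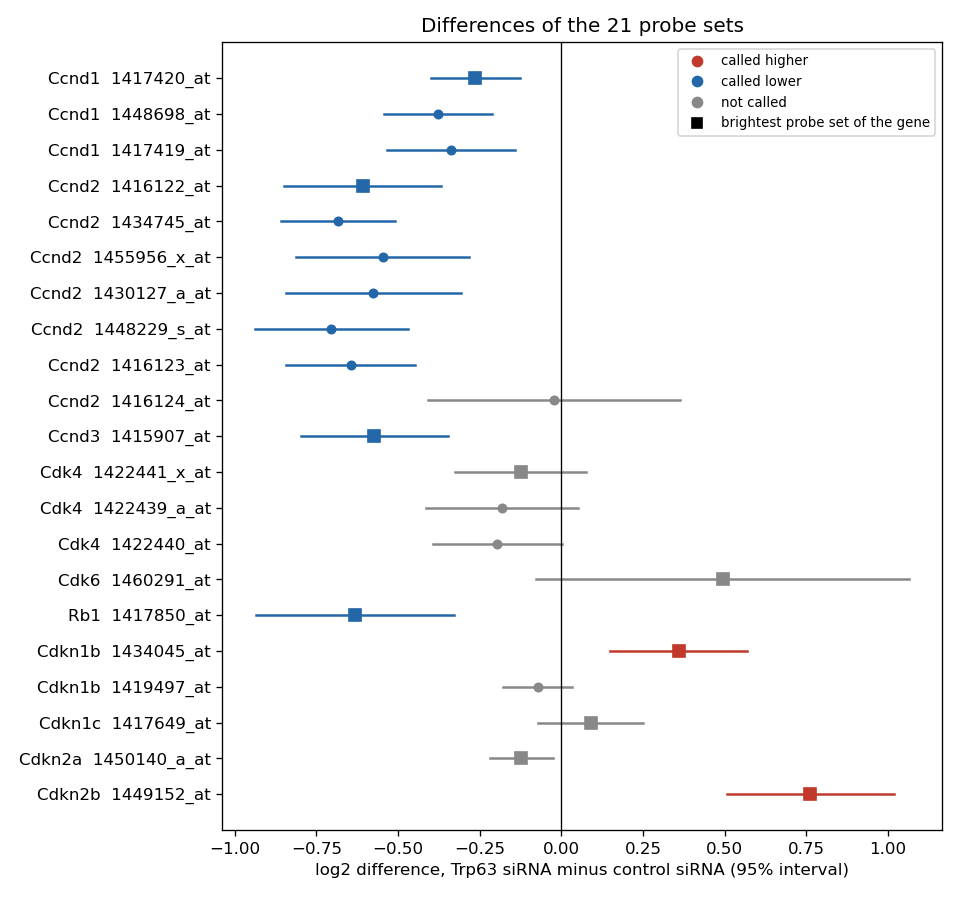
Log2 difference between Trp63 siRNA and control siRNA, with its 95% interval from limma, for each of the 21 probe sets; squares mark the brightest probe set of a gene and colours the call by limma. The D-type cyclin probe sets lie between -0.70 and -0.26 except 1416124_at at -0.02, and Cdkn2b is highest at 0.76.

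The count of calls moved most when a control array was left out. Without control replicate 5 limma called 6 of the 21 probe sets lower and 1 higher (3.94% and 4.95% of all probe sets), and without control replicate 6 it called 3 lower and 1 higher (2.64% and 3.43%). The 4 probe sets that kept their call under every alternative run were those of Cdkn2b and the Ccnd2 probe sets 1434745_at, 1448229_s_at and 1416123_at. With 1 control left out, the other is assumed to vary like the silenced group. The arrays differed within groups as well, as the Cdk6 values show. Within the arrays of high and low melanocyte marker level, the differences were -0.80 and -0.48 for Ccnd2, -0.21 and -0.32 for Ccnd1, -0.50 and -0.67 for Ccnd3, and -0.69 and -0.61 for Rb1. They were 0.58 and 0.89 for Cdkn2b and 0.52 and 0.23 for Cdkn1b, at the brightest probe sets and with 1 control in each split. Each of these 6 genes differed in its called direction in both splits. This was fixed beforehand, because the silenced values of each gene all lay on the same side of both controls. With that split as a block 11 of the 21 probe sets were called lower and 3 higher. Calls over all 22626 probe sets, in either direction, also rose, from 3618 without the block to 5458. Arrays also fell into 2 sets by the level of bacterial hybridisation controls, within which the high and low differences were -0.73 and -0.41 for Ccnd3 and -0.36 and -0.16 for Ccnd1. With this split as a block 11 of the 21 were called lower and 2 higher, and 3623 of all 22626 were called in either direction.

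**Figure D3:**
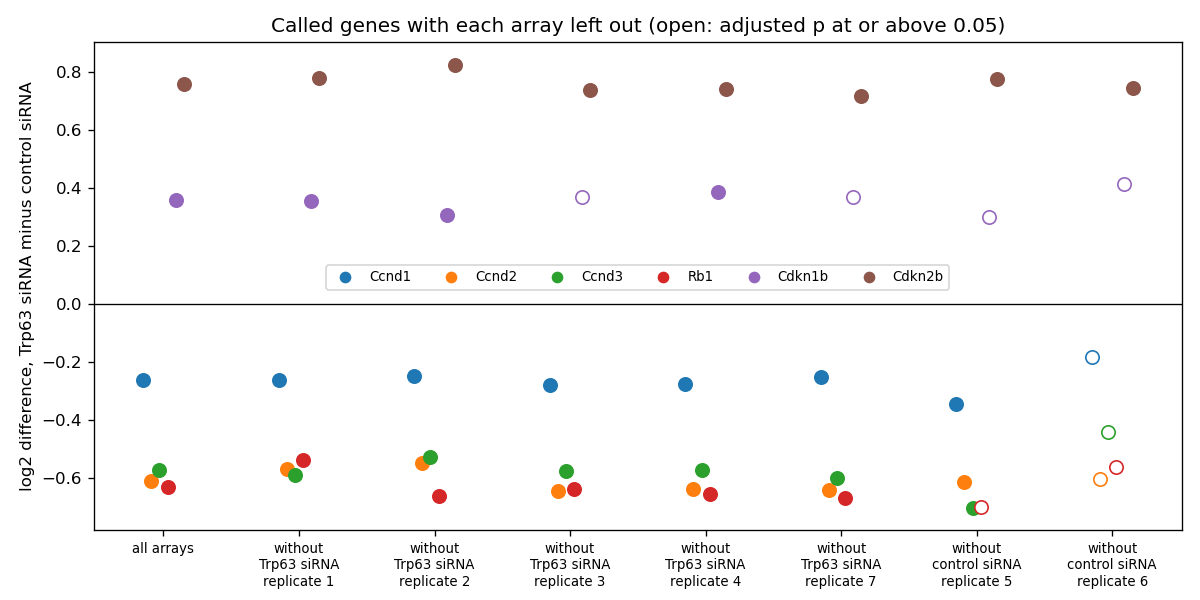
Log2 difference of the 6 called genes at their brightest probe sets with all 7 arrays and with each array left out; filled points have a limma adjusted p below 0.05 and open points do not. Directions hold throughout, as they must where the groups do not overlap, and without control replicate 6 only Cdkn2b, at 0.75, stays filled.

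Other genes around the G1 switch were read from 5 lists, at the brightest probe set of each gene, beside the 16.6% of all genes that passed. Of 6 measured cyclins and kinases of the G1 to S transition, 1 fell and 5 did not pass (none rose), and the median log2 difference was -0.16. Cdk2, the partner kinase of cyclins E and A, read 412 to 443 on the silenced and 499 and 512 on the control arrays (-0.22, SE 0.062, limma adjusted p = 0.0397). Neither control could be left out without ending the call (limma adjusted p = 0.14 without replicate 5 and 0.196 without 6). The cyclin E gene Ccne1 differed by -0.04 (95% interval -0.35 to 0.28).

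Of 9 measured pocket protein and E2F genes, 1 rose and 8 did not pass (none fell), and the median was 0.08. E2f5, an E2F of the repressive kind, read 271 to 348 on the silenced and 224 and 236 on the control arrays (0.41, SE 0.089, limma adjusted p = 0.0132), a call lost without control replicate 5 (0.113) or 6 (0.0749). None of the other 3 CDK inhibitor genes passed. Cdkn2d, the INK4 gene of p19, had the smallest p of the 3 (-0.22, SE 0.067, limma adjusted p = 0.058). Cdkn2c, named after its values were seen, differed farthest from 0 of the 3 (0.37, 95% interval 0.06 to 0.68, limma adjusted p = 0.105). It read 326 to 478 on the silenced and 284 and 298 on the control arrays, with no overlap. Cdkn1a, the CIP/KIP gene of p21, named after its values were seen, read 4073 to 4511 on the silenced and 3754 and 3945 on the control arrays, with no overlap (0.13, 95% interval 0.02 to 0.24, limma adjusted p = 0.118).

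Of 11 genes for CDK activation and for the turnover of cyclins and inhibitors, 2 fell and 9 did not pass (none rose), and the median was -0.03. Fbxw7, the F-box gene whose product marks cyclin E for destruction, read 372, 378, 388, 397 and 403 on silenced replicates 1, 2, 3, 4 and 7 and 563 and 660 on control replicates 5 and 6. The silenced values were tight and far below the controls (1.55-fold, -0.63, SE 0.077, limma adjusted p = 0.000797), and the call held without either control (0.00229 and 0.0148). Gsk3b, a kinase gene whose product phosphorylates cyclin D1, differed by -0.31 (limma adjusted p = 0.0463) and lost its call without control replicate 5 (0.351) or 6 (0.0652). Of 11 markers of S phase and mitosis, 1 fell and 10 did not pass (none rose), and the median was -0.16. That gene was Ccnb2, the cyclin B2 gene (-0.49, limma adjusted p = 0.0158), which lost its call without control replicate 6 (0.16).

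**Figure D4:**
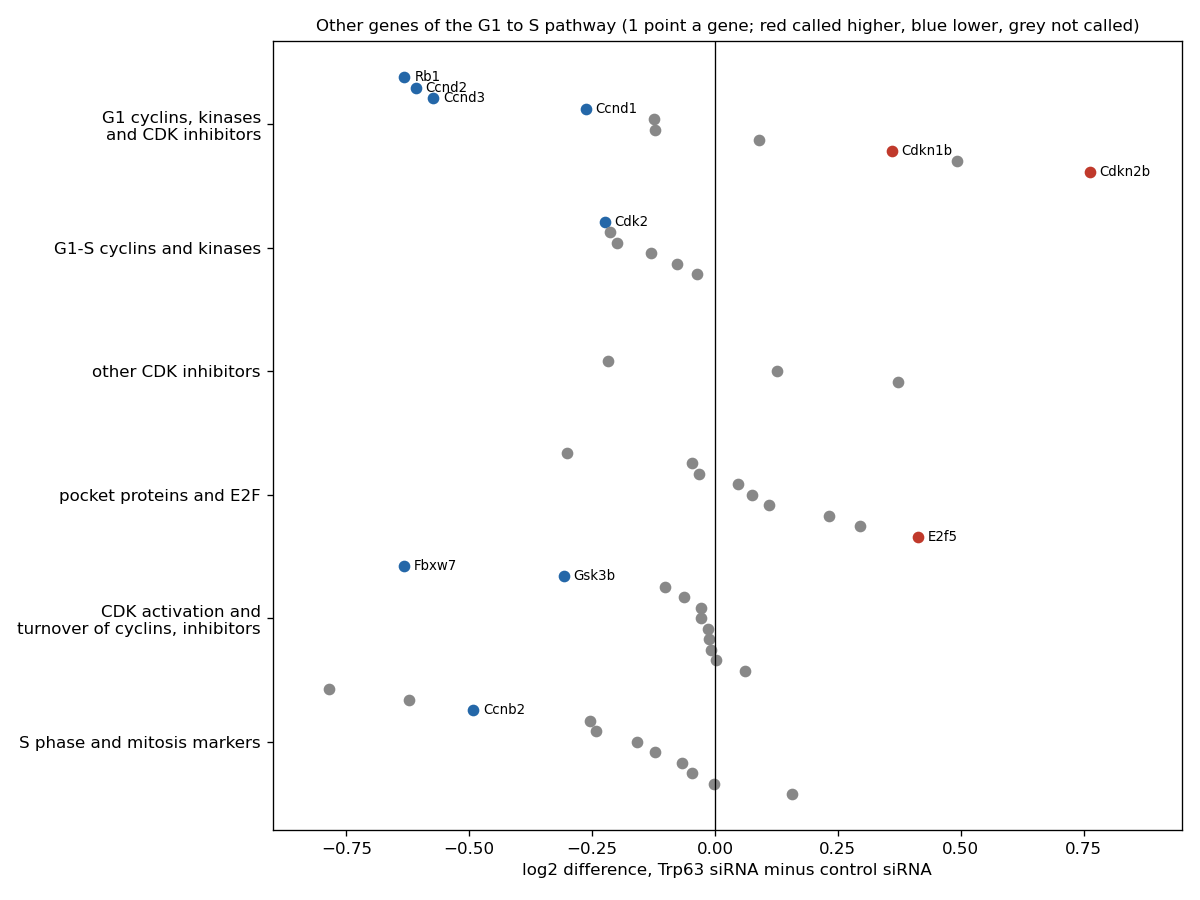
Log2 difference between Trp63 siRNA and control siRNA of each gene at its brightest probe set, for the 10 G1 genes and the 5 other lists of the pathway; red points were called higher, blue lower and grey not called. Among the other lists Fbxw7 at -0.63 and Ccnb2 at -0.49 are the called genes farthest below 0, and E2f5 at 0.41 is the gene called higher.

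By the rule for likeness, the pattern of Cdkn2b over the 7 arrays was compared with that of 6890 genes of at least median level. The highest Pearson correlations were with Col4a2 (r = 0.998), a basement membrane collagen gene, Igfbp7 (0.998), a gene for a secreted growth factor-binding protein, and Col8a1 (0.994), a collagen VIII gene. These are descriptions over 7 arrays that share the split into groups. Igfbp7 read 905, 690, 1283, 1221 and 1306 on silenced replicates 1, 2, 3, 4 and 7 and 334 and 310 on control replicates 5 and 6. As for Cdkn2b, replicate 2 was the lowest silenced array and replicate 1 the next. This shared order is part of the likeness by which Igfbp7 was picked.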

How the data were processed

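Biotinylated cRNA from total RNA had been hybridised to Affymetrix arrays, per the labels' protocols. The deposited table held linear intensity values, 1 for each probe set on each array, and the authors' summarisation and normalisation are not given in the sources used here. Samples were grouped by their titles. Intensities became log2(intensity + 16) after 64 control probe sets were left out. Groups were compared with limma 3.58.1 in R 4.3.3 (lmFit, then eBayes with trend), p-values were adjusted by Benjamini-Hochberg over 22626 probe sets, and 0.05 was the threshold. No filter on dim probe sets was used. A gene was read at its probe set with the highest mean. All 21 member probe sets matched a current symbol by Entrez ID. The members and the lists were chosen with earlier results of these data known.

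Within-array ratios were tested by exact permutation. The text names every member, Trp63, up to 3 called genes in each direction of a pathway list (or the 1 with the smallest p), the 2 brightest markers of a cell type and the 3 genes most like the member with the smallest p. Cd68, Tyrobp, Cdkn1a and Cdkn2c, the values of Ccne1, Mki67 and Top2a, and the splits by marker level were chosen after values were seen. Data were simulated for 22626 probe sets with normal noise, independent between probe sets and without effects shared within an array. The fit recovered 42 of 50 changes of 0.5, 93 of 100 of 1 and 49 of 50 of 2 on the log2 scale. It made 11 false calls. These counts do not cover effects shared within an array. Alternatives were quantile normalisation, median centring, pseudocounts 1 and 64, dropping the dimmest 25% or 50% of probe sets, eBayes untrended or robust, array weights, leaving out each array, and blocks for both splits. Promoters came from RefSeq (GRCm38.p6). Figures were drawn with matplotlib 3.10.9.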

Additional observations from a re-analysis of the deposited data

Results flagged for a closer look

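At Rb1, silenced replicate 1 stood apart from the other silenced arrays, at 195 against 261 to 287 on replicates 2, 3, 4 and 7. The gap to the nearest array was 0.754 of the group's range on the log2 scale, above the limit of 0.710 for 5 samples. Chance alone passes this limit in about 1 of 20 groups, and 22 probe sets were examined in the silenced group. Without silenced replicate 1 the Rb1 difference was -0.54 (limma adjusted p = 0.00048).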

How the results depend on the processing

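Outside the alternatives that leave out an array, 226 of 228 differences of the 21 probe sets stayed on their side of the threshold, the others being Cdk6 with array weights and with the block for melanocyte marker level, both given above. Of 147 differences with 1 array left out, 19 lost their call and 128 did not change side. Direction turned in 4 of all these differences, each at the uncalled Ccnd2 probe set 1416124_at: 0.08 with array weights, and 0.02, 0.07 and 0.05 without silenced replicate 1 or 2 or control replicate 6. With 1 array left out, the number of the 21 probe sets called lower ran from 3 to 11 and called higher from 1 to 2, and the number of all 22626 called from 1374 (without control replicate 6) to 5502 (without silenced replicate 1), against 3618 with all arrays. With the melanocyte split as a block 5458 were called. No paired analysis was possible because the groups share no replicate number. The probe sets of Cdkn1c and Cdkn2a were dim, with means below the median of all probe sets.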

Other observations

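Among the S phase and mitosis markers, the differences farthest from 0 belonged to genes that did not pass. Mki67, the gene of the Ki-67 antigen of cycling cells, read 312, 494, 686, 780 and 758 on silenced replicates 1, 2, 3, 4 and 7 and 865 and 1162 on control replicates 5 and 6 (log2 difference -0.78, SE 0.32, limma adjusted p = 0.13). Top2a, the gene of the DNA topoisomerase of dividing cells, read 721, 908, 1120, 1305 and 1227 against 1461 and 1751 (-0.62, SE 0.21, limma adjusted p = 0.0728). For both genes every silenced value lay below both controls, and silenced replicates 1 and 2 were lowest, as they were for Ccnd2 and Cdk6.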
